A study of Rattus norvegicus with 29 samples.

Results

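In the rat brain, 1086 of 98237 open chromatin regions (OCRs) carried ATAC-seq peaks in the nucleus accumbens (NAc) and the subventricular zone (SVZ) but in few or no libraries of the hippocampus. An OCR was counted in this NAc/SVZ set when at least 1 bp of it overlapped a peak in 6 or more of the 8 NAc peak lists, in 4 or more of the 5 SVZ lists, and in 2 or fewer of the 16 lists of hippocampal DG (dentate gyrus) and CA (Ammon's horn). The first 2 conditions alone held for 34907 OCRs, so most chromatin open in both NAc and SVZ also had peaks in 3 or more hippocampal libraries. Peak calls chose the members, and the higher levels in NAc and SVZ than in DG and CA are therefore given as a description with no test.

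The animals were adult male Sprague-Dawley rats, with no genetic change named. Rats of the METH group had 4 injections of methamphetamine hydrochloride at 10 mg/kg, spaced 2 h apart, and are termed METH-overdose in the series design, and control rats had 4 injections of saline at 1 mL/kg. The 29 libraries comprised 4 of each treatment for NAc, DG and CA, and for SVZ 3 from saline and 2 from METH rats. Each was a bulk ATAC-seq library, in which a transposase inserts adapters into accessible DNA, made from the nuclei of a frozen tissue block, and NAc and SVZ were both dissected from the anterior slices of a brain. The library names carried 8 leading numbers, 4 for saline and 4 for METH, which were read as animals although the labels do not state it. Libraries of different regions thus shared animals, and each DG library shared its animal with a CA library, which the tests below do not take into account. The library name of SVZ METH replicate 2 alone carried an extra tag, whose meaning is not given.

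Open chromatin marks promoters and enhancers, and enhancers in particular differ between cell types. The NAc is part of the ventral striatum and consists mainly of GABAergic medium spiny neurons that receive dopamine, the transmitter released by METH. The SVZ lines the lateral ventricle next to the striatum and holds ependymal cells, neural stem cells and their progeny, while the main neurons of DG and CA, the granule and pyramidal cells, are glutamatergic. In such bulk tissue, fewer cells with an open site and less open chromatin per cell cannot be told apart. The genes around the OCRs and the defining markers of each tissue were not analysed here, because no annotation of rat build rn6, the build of the coordinates, was used.

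Total counts over all OCRs ranged from 7550223 in SVZ saline replicate 3 to 19439840 in CA saline replicate 4. The median member was covered by 22 to 136 counts in the NAc and SVZ libraries and by 7.5 to 28 counts in the DG and CA libraries. Levels are given as CPM, the counts scaled to a common library size of 1000000 with upper-quartile factors. One library stood apart before any comparison: NAc METH replicate 3 had a peak on 240 members, against 985 to 1085 in the other 7 NAc libraries, although its 67231 peaks in all were close to the 68845 of NAc METH replicate 2. Some NAc values below are therefore given with and without it, and others leave it out.

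The members were moderately open in NAc. The 4 saline libraries had a median CPM over members of 7.60, 5.60, 9.07 and 10.5, and the 4 METH libraries had 6.95, 8.12, 2.03 and 10.3. NAc METH replicate 3 was the lowest and lay under every SVZ library as well, while the other 3 METH libraries lay inside the saline range. In SVZ the saline libraries had 4.75, 4.69 and 9.93 CPM and the METH libraries 4.82 and 7.01 CPM. SVZ saline replicate 3 was the highest in SVZ and fell within the range of NAc. The 8 DG libraries ranged from 0.685 to 1.55 CPM with medians over replicates of 1.22 in saline and 0.997 in METH, and the 8 CA libraries ranged from 0.831 to 1.31 CPM with medians of 1.14 and 1.13. No DG or CA library reached the level of any NAc or SVZ library, NAc METH replicate 3 included.

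**Figure D1:**
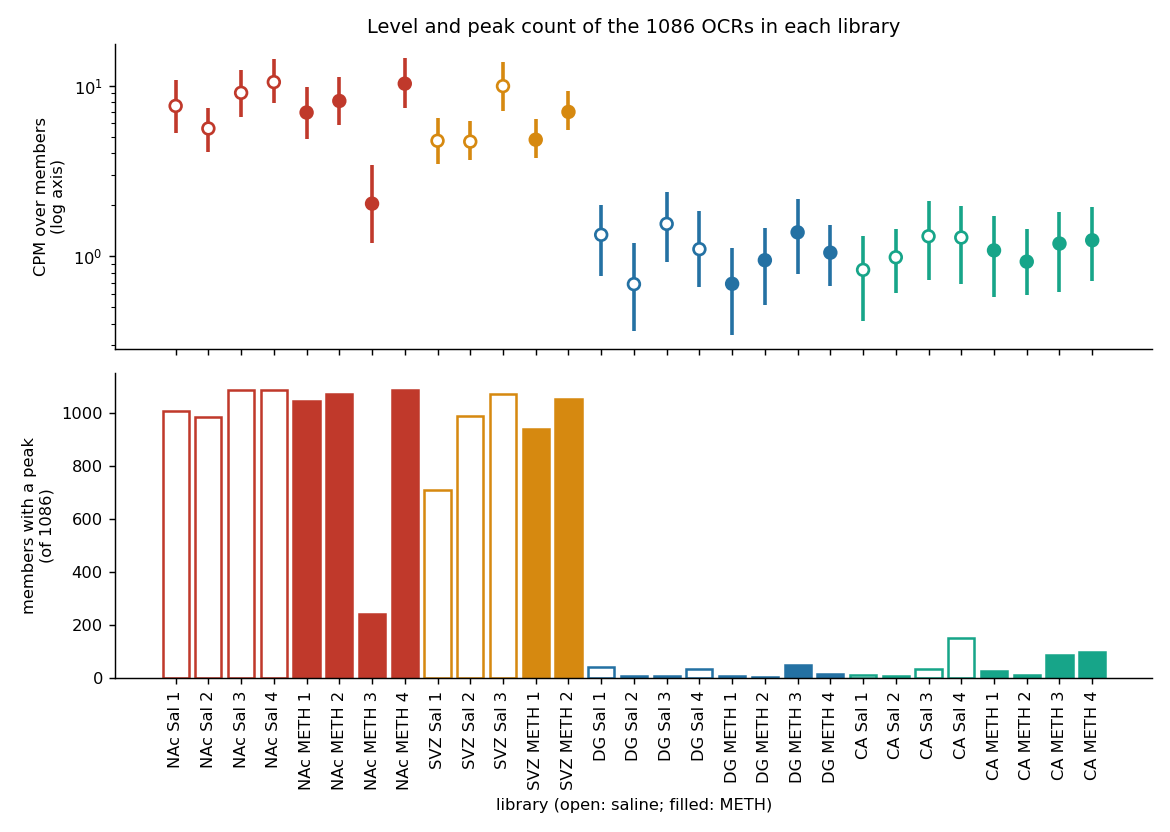
The upper plot gives the median CPM over the 1086 OCRs as points, with vertical lines from the lower to the upper quartile of the OCRs, on a log axis for each of the 29 libraries. The lower plot gives the number of these OCRs with a peak in each library. NAc METH replicate 3 sits at 2.03 CPM and 240 peaks, between the other NAc and SVZ libraries and the hippocampal libraries.

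Member by member, the mean over all 8 NAc libraries was 6.80 times that over DG and CA at the median member. The 5th and 95th percentiles of members were 2.87 and 18.4 times. The SVZ mean was 5.65 times the DG and CA mean, with the same percentiles at 2.73 and 14.4 times. All 8 NAc libraries lay above all 16 DG and CA libraries at 408 members (2.13% of all OCRs did so), and the 7 NAc libraries without METH replicate 3 did so at 980 members (6.69% of all OCRs). All 5 SVZ libraries lay above all DG and CA libraries at 906 members (4.7% of all OCRs). These counts follow from how the members were chosen.

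Membership rested mostly on 7 NAc lists. Peaks were found in 8 NAc lists for 164 members, in 7 for 756 and in 6 for 166, and 709 members had a peak in every NAc list but that of METH replicate 3. In SVZ, 410 members had a peak in all 5 lists and 676 in 4. No DG or CA list held a peak at 677 members, 1 list did at 237 and 2 lists did at 172. A peak was present in some CA library at 337 members and in some DG library at 146 members, and CA saline replicate 4, which had 123299 peaks in all, alone held peaks on 149. Only 42 members had a peak in all 8 NAc and all 5 SVZ lists and in no hippocampal list.

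The values changed little at the limits of the selection. OCRs with a peak in 6 NAc lists had a median of 5.33 CPM for the mean over all NAc libraries, against 4.40 CPM for the 68 OCRs just outside with 5 lists. OCRs in 4 SVZ lists had a median SVZ mean of 5.63 CPM, against 4.60 CPM for the 1018 OCRs in 3 lists. The 172 members in 2 hippocampal lists had a median DG and CA mean of 1.72 CPM, against 2.02 CPM for the 171 OCRs in 3 lists. Thus each limit cut through a continuous range of levels, and the limit on SVZ lists had the most OCRs just outside it.

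The member with the highest mean level over NAc and SVZ was an OCR of 836 bp at chr5:166455022-166455857 (rn6, as all positions here). Its CPM was 24.3, 16.9, 37.4 and 37.8 in NAc saline and 30.6, 28.4, 2.68 and 49.1 in NAc METH. In SVZ it was 18.9, 11.4 and 32.0 in saline and 9.83 and 14.5 in METH, and in the 16 DG and CA libraries it ran from 0.860 over a median of 1.24 to 2.47. Apart from NAc METH replicate 3, whose value was just above the hippocampal range, no NAc or SVZ library came near the hippocampal libraries.

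The next member by level, at chr2:225880446-225881287, had 35.2, 17.1, 27.3 and 28.3 CPM in NAc saline and 20.3, 33.97, 3.88 and 27.9 CPM in NAc METH. Its highest value of all was in SVZ saline replicate 3 at 39.0 CPM, and the other 4 SVZ libraries ran from 10.1 to 24.4 CPM. The same 2 libraries departed from their groups at the OCR at chr5:82656874-82657684, where SVZ saline replicate 3 had 36.04 CPM against 9.64 to 27.1 CPM in the other SVZ libraries, and NAc METH replicate 3 had 1.11 CPM against 13.04 to 30.9 CPM in the other NAc libraries. Means over the 7 other NAc libraries at the remaining 3 of the 6 highest members were 25.6 ± 8.03 CPM (SD, n = 7) at chr4:57189505-57190729, 27.6 ± 7.63 CPM at chr9:15740714-15741428 and 23.0 ± 9.57 CPM at chr8:82152929-82153779. The SVZ means at these OCRs were 17.7 ± 9.18, 14.9 ± 6.64 and 17.3 ± 8.79 CPM (SD, n = 5). SVZ saline replicate 3 was the highest of the 5 SVZ libraries at each, and NAc METH replicate 3 the lowest of the 8 NAc libraries.

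Across members, levels in NAc and SVZ went together. Mean CPM was taken on a log2 scale over the 7 NAc libraries other than METH replicate 3 and over the SVZ libraries. These means had a Pearson correlation of 0.81 over the 1086 members, whereas the same NAc mean and the DG and CA mean had 0.30. These are descriptions across OCRs of the same libraries, which share OCR width and base composition, and OCRs are not independent replicates. The selection also asked for peaks in NAc and SVZ and few in DG and CA, where the median member had only 7.5 to 28 counts. The gap between the correlations is therefore no test of likeness between the tissues. Between single libraries the correlation over members had a median of 0.67 among the 7 NAc libraries other than METH replicate 3. NAc METH replicate 3 had a median correlation of 0.23 with those 7 libraries, 0.48 with the SVZ libraries, 0.46 with DG and 0.46 with CA. SVZ saline replicate 3 had a median correlation of 0.62 with those 7 NAc libraries, against 0.38 to 0.58 for the other SVZ libraries.

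**Figure D2:**
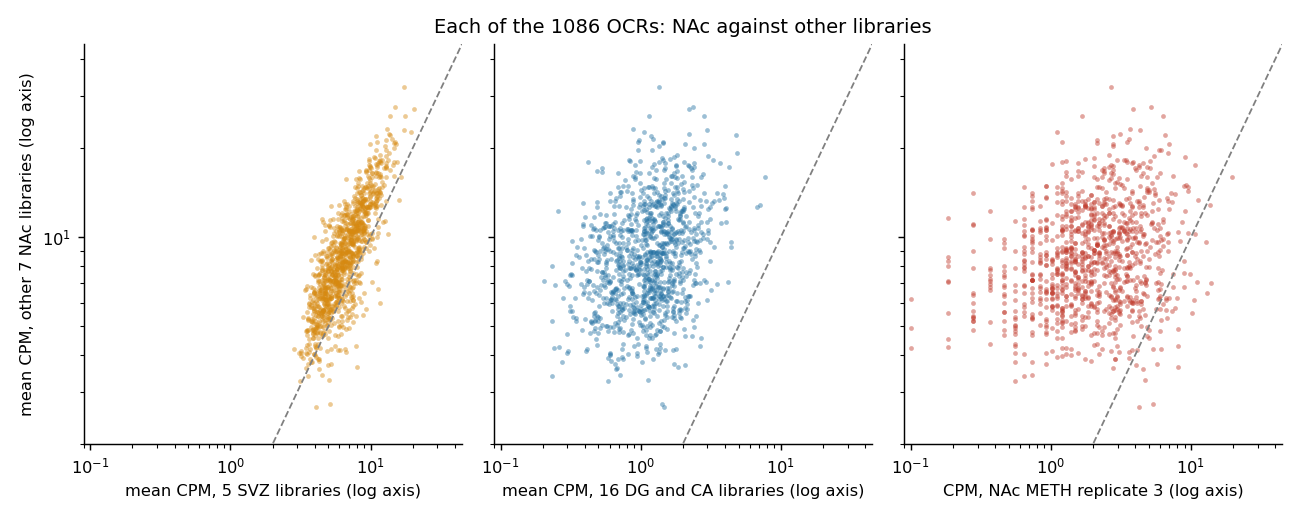
Each point is 1 of the 1086 OCRs, with its mean CPM over the 7 NAc libraries other than METH replicate 3 on the vertical axis and, from left to right, its mean over 5 SVZ libraries, its mean over 16 DG and CA libraries and its CPM in NAc METH replicate 3 on the horizontal axis, all on log axes with the line of equality dashed. The 3 OCRs under 0.1 CPM in NAc METH replicate 3 are drawn at 0.1. Points follow the line in the left plot with 967 OCRs above it, and lie well above it and widely spread in the other plots.

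NAc METH replicate 3 also differed at OCRs outside the set. At the 1170 OCRs with peaks in 6 or more NAc lists, 1 or fewer SVZ lists and 2 or fewer hippocampal lists, its median was 1.38 CPM, against 3.57 to 5.63 CPM in the other NAc libraries. At the 49 OCRs open in SVZ but not NAc it had 3.42 CPM, against 1.36 to 2.31 CPM in the other NAc libraries and 3.07 to 7.03 CPM in SVZ. At the 2993 hippocampal OCRs it had 1.94 CPM, within the 1.41 to 2.55 CPM of the other NAc libraries. Its members with a peak, 240 in number, had a median of 4.80 CPM in it, and the 846 without a peak had 1.62 CPM. These groups of OCRs were themselves defined on the same peak lists.

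The members differed in shape from the OCRs open in NAc and SVZ as a whole. Their median width was 657 bp, against 877 bp for all 34907 OCRs open in NAc and SVZ and 662 bp for all 98237 OCRs. A width of 1000 bp or more was found in 6.17% of members, 35.8% of OCRs open in NAc and SVZ, and 16.9% of all OCRs. The median fold enrichment of the peaks was 8.32 in the NAc libraries other than METH replicate 3 and 5.30 in SVZ for the members. For all OCRs open in both it was 8.27 and 6.52, so the members were narrower at a like NAc enrichment. The summits in the 2 tissues were also compared, again with NAc METH replicate 3 left out. The median NAc summit and the median SVZ summit were 15.5 bp apart at the median member, against 8.5 bp for all OCRs open in both. Over all OCRs with a summit in NAc and in SVZ the median was 14.0 bp. The 2 summits were within 50 bp at 78.8% of members, against 85.8% of all OCRs open in NAc and SVZ. Width, enrichment and summit position come from the same peak lists as the selection and are not tested. An OCR joins the peaks of all lists, and members had few hippocampal peaks to join. How far the selection itself bears on their width was not tested. The 34907 OCRs open in NAc and SVZ include the members.

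Members were found on every chromosome but Y, which held 9 OCRs in all. Their share of the OCRs of a chromosome was highest on chromosomes 11 (54 members, 1.85%) and 18 (58 members, 1.83%) and lowest on chromosomes 10 (36 members, 0.608%) and 1 (74 members, 0.708%). Most members, 980, had no other member within 50 kb. There were 44 pairs, 3 runs of 3 members, 1 run of 4 and 1 run of 5.

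The longest run lay at chr1:52605776-52714333, a stretch of 109 kb with 13 OCRs of which 5 were members. The highest of these, at chr1:52675185-52675832, had 19.6, 10.7, 23.7 and 33.5 CPM in NAc saline and 12.3, 16.5, 2.12 and 29.8 CPM in NAc METH. In SVZ it had 6.65, 9.21 and 31.2 CPM in saline and 7.22 and 18.8 CPM in METH, and in DG and CA it ran from 0.591 over a median of 1.18 to 2.83 CPM. Its neighbour at chr1:52673914-52674415 had means of 14.2 ± 5.23 CPM in the 7 other NAc libraries (SD, n = 7), 8.35 ± 5.46 CPM in SVZ (n = 5) and 0.728 ± 0.438 CPM in DG and CA (n = 16). The 8 other OCRs in this stretch varied in where they were open: at chr1:52696543-52697241 peaks were present in all 16 hippocampal lists with a DG and CA mean of 8.17 CPM, and at chr1:52645642-52646026 peaks were present in 7 hippocampal lists but in no NAc or SVZ list.

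The run of 4 members lay at chr11:68851811-68933810, on the chromosome with the highest share of members. It held the widest member, 1496 bp at chr11:68900952-68902447, whose CPM was 17.5, 14.97, 26.1 and 27.8 in NAc saline, 14.4, 16.9, 4.80 and 22.8 in NAc METH, 11.1, 13.03 and 22.3 in SVZ saline and 14.6 and 12.9 in SVZ METH. Its DG and CA values ran from 0.774 over 2.38 to 4.18 CPM, so that NAc METH replicate 3 was just above the highest of them. None of the 4 members had a peak in a DG or CA list. Among the 4 other OCRs in this stretch, that at chr11:68889313-68890380 was open in every hippocampal list, with mean levels of 11.7 CPM in SVZ and 9.39 CPM in DG and CA. In the run of 3 members at chr6:108383537-108446422 the member means over the 7 other NAc libraries were 5.06 to 13.3 CPM and the DG and CA means 0.529 to 0.883 CPM, and the 2 OCRs between them had peaks in 6 and 14 hippocampal lists.

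**Figure D3:**
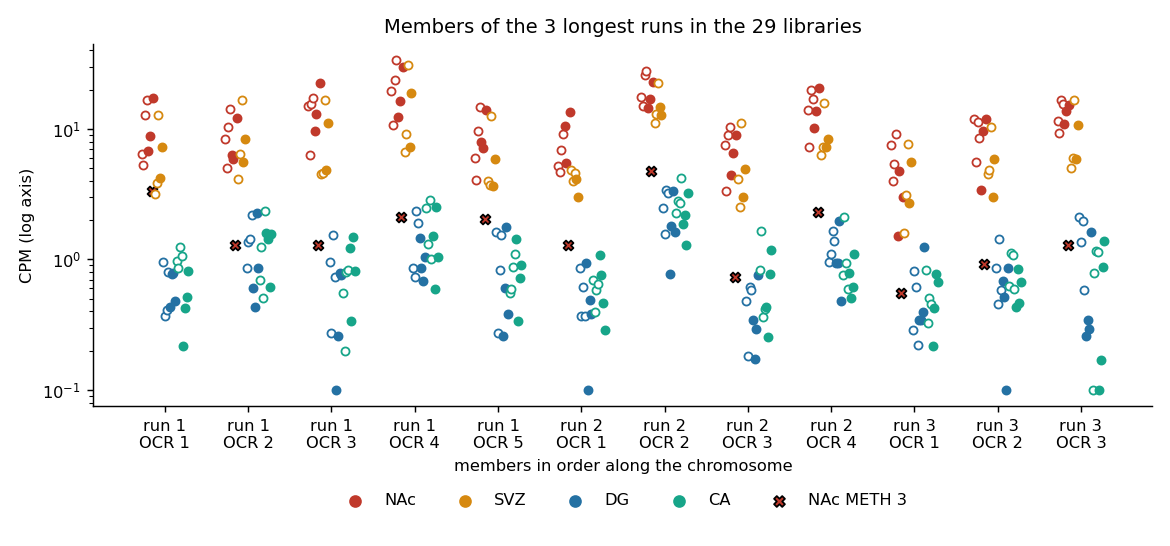
CPM on a log axis of the 12 members of the 3 longest runs, in chromosome order, in each of the 29 libraries, with open points for saline and filled points for METH, colours for the regions and a cross for NAc METH replicate 3. The 5 values under 0.1 CPM are drawn at 0.1. At each OCR the other NAc libraries and the SVZ libraries lie above the median of the hippocampal libraries, and the cross lies below the other NAc libraries.

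The first comparison asked whether METH altered accessibility at the members in NAc. No member passed the thresholds of a fold change above 1.5 and an adjusted p under 0.001 in edgeR's quasi-likelihood test over all OCRs, nor did any other OCR (0% of all OCRs), and DESeq2 called no member either (0% of all OCRs). In simulated counts, with changes at OCRs drawn from the whole set, this edgeR test called 35 of 100 changed 4-fold and 0 of 100 changed 2-fold. The absence of calls therefore does not show an absence of change. The paper, which also removed unwanted variation with RUVSeq before edgeR, reported regions of changed accessibility in NAc at these thresholds. That step was not run here. At an unadjusted p under 0.05, 8 members were higher in METH and 16 lower (1.03% and 1.42% of all OCRs), and DESeq2 gave 8 and 14 (1.54% and 1.62% of all OCRs). The median log2 fold change over members was -0.22, with a median standard error of 0.48 for a single member, against -0.01 over all OCRs, and 795 of the 1086 members had a value below 0 (50.7% of all OCRs did).

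This lower median depended on 1 library. Without NAc METH replicate 3 the median over members was 0.06, against -0.04 over all OCRs, 622 members were above 0 (45.2% of all OCRs), and the counts at an unadjusted p under 0.05 were 22 higher and 3 lower (0.778% and 1.29% of all OCRs). The library names fell into 2 naming sets that each held 2 saline and 2 METH libraries of NAc. In the first set the median difference of mean log2 CPM was 0.23, and in the second set, which holds NAc METH replicate 3, it was -0.99, or 0.08 without that library. The METH effect at the members in NAc thus had no direction shared by both sets with all libraries in.

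All 4 METH libraries of NAc lay above all 4 saline libraries at 3 members (1.04% of all OCRs) and below them at 14 members (1.91% of all OCRs). The largest fold change among the former was at chr12:31150775-31151162, with 1.17, 1.83, 2.05 and 2.54 CPM in saline and 3.83, 3.69, 5.35 and 3.96 CPM in METH. The log2 fold change was 1.14 ± 0.52 (SE). The groups did not overlap, with NAc METH replicate 3 the highest. At chrX:44358111-44358839 the saline libraries had 1.46, 3.46, 2.66 and 3.70 CPM and the METH libraries 5.74, 4.15, 8.03 and 4.28 CPM, a log2 fold change of 0.97 ± 0.36 (SE). Here too NAc METH replicate 3 was the highest NAc library. In the SVZ libraries these members had 1.06 to 9.50 CPM and 2.13 to 13.2 CPM.

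Among the members lower in every METH library of NAc, that at chr2:180682221-180682813 had 15.2, 8.56, 10.5 and 13.6 CPM in saline and 3.02, 5.82, 1.66 and 5.83 CPM in METH. Its log2 fold change was -1.54 ± 0.53 (SE), and it stayed between -1.77 and -1.28 whichever NAc library was left out. At chr9:47129632-47130144 saline had 6.33, 5.70, 9.54 and 10.2 CPM and METH 3.12, 4.80, 0.277 and 5.13 CPM, a log2 fold change of -1.25 ± 0.52 (SE), or -0.87 without NAc METH replicate 3. NAc METH replicate 3 was the lowest library at both, and the groups did not overlap. The edgeR adjusted p was 1.00 at all 4 of these OCRs.

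In SVZ the question was the same, with 3 saline and 2 METH libraries. What change could be detected with so few was not tested. No member was called by edgeR (0% of all OCRs). DESeq2 gave an adjusted p for only 12 members and called none of them, against 0.0363% of the OCRs with an adjusted p. At an unadjusted p under 0.05 edgeR gave 3 members higher and 1 lower (1.27% and 2.2% of all OCRs), and DESeq2 gave 2 and 1 (1.46% and 3.15% of all OCRs). The median log2 fold change over members was -0.13, with a median standard error of 0.63 for a single member and a median over all OCRs of -0.01. It was 0.35 without SVZ saline replicate 3, the library with the highest level in SVZ, 0.09 without SVZ METH replicate 1, and -0.42 without SVZ METH replicate 2, the library with the extra tag in its name. Both METH libraries belong to the second naming set, and within it the median difference of mean log2 CPM was -0.22, or 0.28 without SVZ saline replicate 3.

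Both SVZ METH libraries lay above the 3 saline libraries at 33 members (10.6% of all OCRs) and below them at 49 (9.61% of all OCRs). At chr2:220565214-220566310 the saline libraries had 11.5, 4.78 and 6.85 CPM and the METH libraries 19.6 and 12.5 CPM, for a log2 fold change of 1.06 ± 0.42 (SE). At chr5:170124728-170125528 saline had 8.12, 2.00 and 4.02 CPM and METH 10.9 and 8.24 CPM, for a log2 fold change of 1.02 ± 0.54 (SE). In each case the lower METH library was close to the highest saline library, SVZ saline replicate 1.

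The members lower in SVZ METH with the largest change were at chr9:14276112-14276908 and chr5:129539418-129539924. The former had 13.1, 8.60 and 8.74 CPM in saline and 4.62 and 3.81 CPM in METH, with a log2 fold change of -1.26 ± 0.75 (SE), while its NAc libraries ran from 5.65 to 28.1 CPM. The latter had 5.28, 8.25 and 6.62 CPM in saline and 3.28 and 2.58 CPM in METH, with a log2 fold change of -1.20 ± 0.56 (SE). NAc METH replicate 3 was within the range of the other NAc libraries at both OCRs, with 9.51 and 5.91 CPM. The edgeR adjusted p was 1.00 at each of the 4 SVZ examples.

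The difference between the METH effects in NAc and SVZ was tested as an interaction, in which no member was called by edgeR (0% of all OCRs). DESeq2 gave an adjusted p for 17 members and called none (0.00417% of the OCRs with an adjusted p). At an unadjusted p under 0.05, 1 member was higher and 3 lower in edgeR (1.64% and 0.841% of all OCRs), and 3 and 1 in DESeq2 (2.69% and 0.973% of all OCRs). The median over members was -0.11, and with single libraries left out it ran from -0.60 without SVZ saline replicate 3 to 0.21 without SVZ METH replicate 2.

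The remaining METH comparisons concern tissue where the members were nearly closed. In DG no member was called by edgeR (0% of all OCRs), while DESeq2 gave no adjusted p for the members and called 0% of the OCRs that had one. At an unadjusted p under 0.05 edgeR gave 8 members higher and 44 lower (3.57% and 6.28% of all OCRs), and DESeq2 gave 13 and 29 (11.7% and 4.39% of all OCRs). Over all OCRs lower values were thus the more frequent in edgeR and higher values in DESeq2, while at the members lower values were the more frequent in both. The median log2 fold change in DG was -0.24 over members and -0.15 over all OCRs, and it was -0.09 and -0.01 with the size factors of DESeq2. In CA no member was called by edgeR or DESeq2 (0% of all OCRs by either), with 10 higher and 7 lower at an unadjusted p under 0.05 in edgeR (0.353% and 0.467% of all OCRs) and 8 and 13 in DESeq2 (0.289% and 1.24% of all OCRs), and a median of 0.00 against 0.02 over all OCRs. The median member had 7.5 to 28 counts in these libraries, and what difference could be detected at that depth was not tested.

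Levels in NAc and SVZ were next compared with each other, a contrast the selection did not use directly although both tissues had to carry peaks. In saline libraries the median log2 fold change of NAc over SVZ was 0.34 over members and -0.00 over all OCRs, and 928 members had a value above 0 (49.9% of all OCRs). No member was called at a fold change above 2 and an adjusted p under 0.01 in edgeR (0% of all OCRs), nor in DESeq2 among the 864 members with an adjusted p (0.00144% of the OCRs with one). In simulated counts the edgeR test called 36 of 100 OCRs changed 4-fold and 2 of 100 changed 2-fold. At an unadjusted p under 0.05, 9 members were higher in NAc and 4 lower (1.43% and 3.04% of all OCRs) in edgeR, and DESeq2 gave the same counts (2.22% and 3.18% of all OCRs). Without SVZ saline replicate 3 the median was 0.81 and the counts were 134 higher and 5 lower (2.49% and 4.73% of all OCRs), and without SVZ saline replicate 2 the median was 0.15.

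In METH libraries the median of NAc over SVZ was 0.23 over members, against -0.05 over all OCRs, and it was 0.51 without NAc METH replicate 3. It was -0.02 without SVZ METH replicate 1 and likewise without NAc METH replicate 4. No member was called by edgeR (0% of all OCRs), with 20 higher and 11 lower at an unadjusted p under 0.05 (5.37% and 4.98% of all OCRs). DESeq2 gave an adjusted p for only 87 members and called none of them, while it called 2.43% of the OCRs with an adjusted p, and at an unadjusted p under 0.05 it gave 36 and 7 members (8.1% and 4.57% of all OCRs). The saline and METH contrasts rest on different libraries.

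Of the NAc and SVZ libraries, 5 pairs carried the same animal number. In 4 of the 5 pairs the median over members was higher in NAc: 7.60 against 4.75 CPM, 9.07 against 4.69, 10.5 against 9.93, and 10.3 against 7.01 CPM. In the fifth, NAc METH replicate 3 with SVZ METH replicate 1, it was 2.03 against 4.82 CPM. NAc exceeded SVZ at 77.9%, 92.7%, 58.2% and 80.8% of members in the 4 pairs and at 8.01% in the fifth, while over all OCRs the share was 43.2% to 52.0%.

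**Figure D4:**
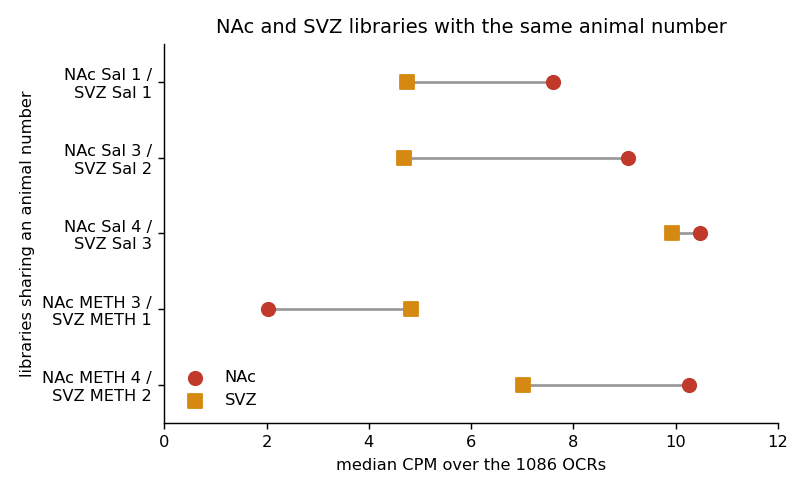
Median CPM over the 1086 OCRs in the NAc library (circle) and the SVZ library (square) of each of the 5 pairs that share an animal number, with a line joining each pair. NAc is to the right of SVZ in 4 pairs and to the left in the pair with NAc METH replicate 3, at 2.03 against 4.82 CPM.

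Taking the mean of the 7 NAc libraries without METH replicate 3, NAc exceeded SVZ at 967 of the 1086 members and at 47.6% of all OCRs. The ratio had a median of 1.33, exceeded 1.5 at 303 members and exceeded 2 at 24, and it was below 1 at 119. With all 8 NAc libraries the median ratio was 1.21 and NAc was higher at 896 members. Without METH replicate 3, the 166 members in only 6 NAc lists had a median ratio of 1.11, those in 7 lists 1.36 and those in 8 lists 1.34. The number of NAc lists was itself used in the selection.

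The 3 members with the lowest p for NAc over SVZ in saline were at chr17:35015057-35015705, chr3:32473103-32473801 and chr1:104638419-104639032. The first had 8.76, 10.8, 16.6 and 14.4 CPM in NAc saline and 3.48, 5.56 and 6.97 CPM in SVZ saline, a log2 fold change of 1.25 ± 0.45 (SE). The second had 4.48, 8.25, 12.7 and 9.32 CPM against 3.90, 3.04 and 4.61 CPM, a log2 fold change of 1.18 ± 0.47 (SE), and its highest value was 18.7 CPM in NAc METH replicate 4. The saline libraries of the regions did not overlap at the first OCR, and at the second NAc saline replicate 1 fell just below the highest SVZ library. The third had 16.9 to 21.5 CPM in NAc saline but for replicate 2 at 12.5 CPM, and 6.12, 6.52 and 14.9 CPM in SVZ saline, a log2 fold change of 0.99 ± 0.43 (SE). All NAc saline libraries exceeded all SVZ saline libraries at 16 members (2.73% of all OCRs) and lay below them at 6 (4.09% of all OCRs).

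The 3 members with the lowest p for SVZ over NAc each had a peak in only 6 NAc and 4 SVZ lists. One of them was the OCR at chrX:44358111-44358839 described above, with 8.76, 8.34 and 2.13 CPM in SVZ saline and a log2 fold change of NAc over SVZ of -1.18 ± 0.38 (SE). At chr8:48892657-48893519 SVZ saline had 13.4, 5.13 and 4.25 CPM and NAc saline 3.41, 3.67, 2.86 and 4.78 CPM, a log2 fold change of -1.04 ± 0.34 (SE). At chr6:133969543-133970467 SVZ saline had 23.5, 4.78 and 5.79 CPM and NAc saline 5.36, 2.95, 3.54 and 4.85 CPM, a log2 fold change of -1.44 ± 0.50 (SE). The groups overlapped at all 3 OCRs. Without SVZ saline replicate 1 the log2 fold changes of the last pair were -0.35 and -0.34, and at chr8:48892657-48893519 NAc METH replicate 3, with 8.12 CPM, was the highest NAc library. The edgeR adjusted p of these 6 OCRs was between 0.965 and 0.996.

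**Figure D5:**
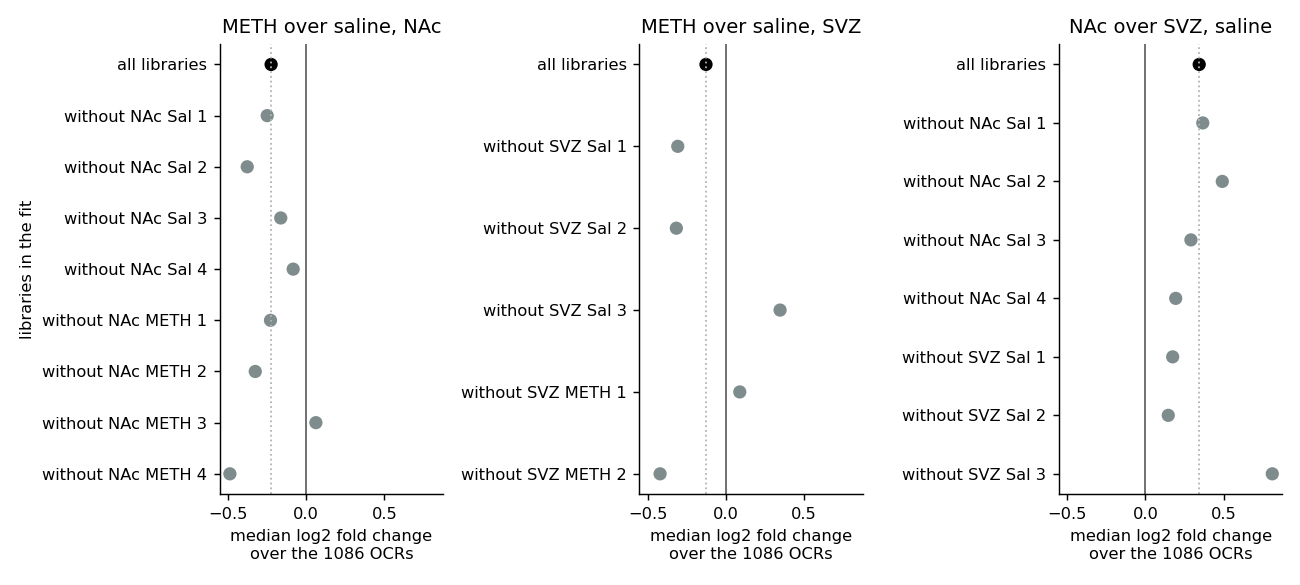
Median log2 fold change over the 1086 OCRs with all libraries (black) and with each library left out in turn (grey), for METH over saline in NAc, METH over saline in SVZ and NAc over SVZ in saline. The value crosses 0 without NAc METH replicate 3 in the left plot and without SVZ saline replicate 3 or SVZ METH replicate 1 in the middle plot, and stays above 0 in the right plot, from 0.15 to 0.81.

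The last comparison was between DG and CA, whose saline libraries come from the same 4 animal numbers. In saline libraries the median log2 fold change of DG over CA was 0.11 over members and 0.05 over all OCRs, and no member was called by edgeR or DESeq2 (0% of all OCRs by either). At an unadjusted p under 0.05, 15 members were higher in DG and 2 lower in edgeR (0.951% and 0.159% of all OCRs), and DESeq2 gave 9 and 8 (0.452% and 0.812% of all OCRs). With the animal number as a block, none was called and 33 were higher and 9 lower (2.1% and 0.218% of all OCRs). The median was -0.02 with DESeq2 and 0.02 with TMM scaling, and it was -0.04 without DG saline replicate 3 and -0.01 without CA saline replicate 1.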

How the data were processed

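The authors processed the ATAC-seq reads with the AIAP pipeline on build rn6, called peaks library by library, and joined them with mergeBed (bedtools) into 98237 OCRs. The pipeline's version, its shift for the transposase cut and the counting tool are not given in the sources used here. Raw counts per OCR are in the authors' table. In the deposited peak lists each peak has a fold enrichment (ratio) over local background and a −log10 q-value.

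Groups came from the sample titles. The members and lists were chosen with earlier results of these data known. Peaks overlapping an OCR were found with bedtools 2.31.1. Counts were tested over all 29 libraries in 8 groups with edgeR 4.0.16 in R 4.3.3 (upper-quartile scaling, trended dispersion, robust quasi-likelihood F-test, Benjamini-Hochberg adjustment over all OCRs), and filterByExpr kept 98237 OCRs. METH effects were called at fold change above 1.5 and adjusted p under 0.001, region differences at 2 and 0.01. Mean log2 CPM used a pseudocount of 0.5. DESeq2 1.42.0, TMM scaling, a minimum mean CPM of 1, blocks and left-out libraries were alternatives. In simulated counts for METH in NAc over 98237 OCRs, 35 of 100 OCRs changed 4-fold and 0 of 100 changed 2-fold were called, with 0 false calls; for NAc over SVZ in saline 36 and 2 were called. P-values set a difference against the spread between libraries within the 8 groups, with libraries that share an animal number treated as independent. Intervals for counting error were not used.

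Named OCRs were the 6 highest by mean CPM over the 13 NAc and SVZ libraries, the 2 highest and 2 lowest METH effects with no overlap of groups in NAc and in SVZ, the 3 lowest p in each direction between NAc and SVZ in saline, and the 3 longest runs. Members near listed genes, and their sequences, were to be given only with an annotation and genome of rn6 and are not analysed here. Libraries with the same replicate number in METH and saline carried different animal numbers, so the numbers do not pair those groups.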

Additional observations from a re-analysis of the deposited data

Results flagged for a closer look

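A pair of counts of OCRs were singled out because 1 library lay far from the others of its group, by a measure of gaps that picks about 1 in 20 groups by chance. Among the 4 NAc METH libraries, replicate 3 had a peak at 240 of the 1086 NAc/SVZ OCRs and the others at 1044 to 1085, so that its gap to the nearest library was 0.951 of the whole range. Among all 8 NAc libraries the gap was 0.882 of the range, with the next lowest library, NAc saline replicate 2, at 985. These peak counts are the calls by which the OCRs were chosen, so the gaps are a description and no test. The median CPM over the OCRs in the same library, 2.03, did not pass its limit, with a gap of 0.598 of the range among the 4 METH libraries. Its total of 11137949 counts lay near those of the other METH libraries, at 11141550 to 11796562, and the part of depth in these values was not tested.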

How the results depend on the processing

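In the fit of all 29 libraries the filters could change little. There filterByExpr had removed none of the 98237 OCRs, and a minimum mean CPM of 1 kept 98233. With no member called in the 8 contrasts, the count of calls stayed at 0 under either filter, TMM scaling, DESeq2, the naming set as a covariate and every left-out library (DESeq2 gave an adjusted p for 0 members for METH in DG, 12 in SVZ, 17 for the interaction, and 87 in METH and 864 in saline for NAc over SVZ). The replicate block, fitted on the libraries of each contrast alone, changed it once. In NAc over SVZ among METH libraries 2 members were called higher in NAc, as were 0.0753% of all 96941 OCRs kept by its filter. At an unadjusted p under 0.05, 282 members were higher and 37 lower (11.9% and 12.2% of all those OCRs). Same-numbered libraries there carry different animal numbers, however, and their deviations correlated between -0.08 and 0.22. With the animal number as the block, added after seeing the data, none was called and the counts were 16 and 9 for METH libraries (3.09% and 4.39% of all OCRs) and 113 and 3 for saline libraries (4.82% and 2.93% of all OCRs). The replicate block changed no other call. For METH in DG its filter kept 725 of the 1086 members, for METH in CA 898, and for DG over CA in saline 808. The same replicate block moved the SVZ median for METH from -0.13 to 0.34. Medians over members with single libraries left out ran from -0.49 to 0.06 for METH in NAc, -0.42 to 0.35 in SVZ, -0.44 to -0.07 in DG, -0.11 to 0.10 in CA, 0.15 to 0.81 for NAc over SVZ in saline, -0.02 to 0.54 in METH, -0.04 to 0.26 for DG over CA, and -0.60 to 0.21 for the interaction. Members re-chosen without NAc METH replicate 3, 1141 in number, gave 0.06 for METH in NAc. The number of members was 1086 with 50% overlap, 816 with only peaks of −log10 q above 5 (743 shared), and 42 with 8 NAc, 5 SVZ and 0 hippocampal lists. The OCRs were joined from the peaks, so asking for 50% of the peak could hardly change this number. With a list left out the number ran from 1087 to 1881, being 1881 without SVZ saline replicate 1 and 1748 without SVZ METH replicate 1. There the NAc or SVZ minimum fell by 1 or the hippocampal maximum of 2 stayed, so the number could not fall. The causes were not tested.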
